A study of Rattus norvegicus with 8 samples.

Results

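The 10 genes described here form the core of the circadian clock and its outputs, namely the activators Bmal1 (also written Arntl) and Npas2, the repressors Per1, Per2, Per3 and Cry1, the nuclear receptors Nr1d1 and Nr1d2, and the output factors Dbp and Nfil3. All 10 were found among the 12206 genes named on the arrays, as every non-control probe whose RefSeq accession belongs to one of them, which gave 12 probes (2 each for Npas2 and Per3). The genes were chosen from a gene list with their differences between the feeds in these same arrays in view, so the comparison of the feeds is given as a description without a test for them. Hippocampal RNA of 8 male Wistar rats was measured on 1-colour Agilent arrays. The 4 CCH rats ate standard feed with 0.1% coral calcium hydride (CCH, a powder of coral calcium loaded with hydrogen), and the 4 control rats ate the standard feed alone. All rats were 6 weeks old when assigned and 8 weeks old when killed. The sources used here give no time of day of killing. The sample descriptions name a lesion model of Parkinson's disease with saline or L-DOPA injection, which contradicts the rest of the labels. The titles and the treatment field set the groups here.

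The clock is a feedback loop of transcription that runs in most cells of the body with a period of about a day. In mammals BMAL1 pairs with CLOCK or, in the forebrain, with NPAS2, binds E-box DNA and activates the Per, Cry and Nr1d genes and Dbp. PER and CRY proteins then inhibit this activity, while the NR1D proteins (REV-ERBs) repress Bmal1, Npas2, Cry1 and Nfil3 through the ROR response element (RORE). DBP activates and NFIL3 represses genes through the D-box. For the description the genes are grouped by these elements into an E-box and D-box class (Dbp, Nr1d1, Nr1d2, Per1, Per2, Per3) and a RORE class (Bmal1, Npas2, Cry1, Nfil3), whose transcripts peak at different times of day in most tissues.

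The elements that define the classes can be read in the promoters of 3 of the genes, shown because their motifs are those the classes are named for. The sequences are RefSeq's, on the GRCr8 assembly, from 250 bases before to 50 bases after a transcript start, 5′ to 3′ on the gene's strand. Capitals mark the motifs, searched on both strands.
Bmal1 promoter (chr1:176766078-176766377, plus strand): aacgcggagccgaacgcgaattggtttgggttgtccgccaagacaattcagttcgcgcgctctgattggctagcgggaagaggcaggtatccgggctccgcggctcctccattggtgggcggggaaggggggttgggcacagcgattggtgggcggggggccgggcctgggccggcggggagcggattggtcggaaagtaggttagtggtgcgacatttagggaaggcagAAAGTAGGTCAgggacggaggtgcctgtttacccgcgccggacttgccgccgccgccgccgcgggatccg
Nr1d1 promoter of the distal start (chr10:84231763-84232062, minus strand): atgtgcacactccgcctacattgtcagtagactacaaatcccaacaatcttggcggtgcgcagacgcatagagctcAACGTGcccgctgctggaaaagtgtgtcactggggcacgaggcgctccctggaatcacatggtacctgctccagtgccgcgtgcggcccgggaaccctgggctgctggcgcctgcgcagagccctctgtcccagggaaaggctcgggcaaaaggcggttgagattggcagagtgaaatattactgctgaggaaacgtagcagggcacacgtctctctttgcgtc
Nr1d1 promoter of the proximal start (chr10:84229405-84229704, minus strand): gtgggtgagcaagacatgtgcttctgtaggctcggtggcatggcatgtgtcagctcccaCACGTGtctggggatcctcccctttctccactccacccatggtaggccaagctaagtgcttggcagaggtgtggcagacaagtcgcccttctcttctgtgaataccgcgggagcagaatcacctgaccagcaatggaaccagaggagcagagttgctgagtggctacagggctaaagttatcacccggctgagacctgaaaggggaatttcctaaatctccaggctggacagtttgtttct
Per2 promoter (chr9:99496944-99497243, minus strand): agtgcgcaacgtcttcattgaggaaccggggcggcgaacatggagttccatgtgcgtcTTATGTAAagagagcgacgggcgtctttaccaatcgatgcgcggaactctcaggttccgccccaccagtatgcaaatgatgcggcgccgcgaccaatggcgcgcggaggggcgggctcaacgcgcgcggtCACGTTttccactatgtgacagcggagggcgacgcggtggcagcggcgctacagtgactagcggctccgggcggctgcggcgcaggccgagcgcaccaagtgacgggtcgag

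The capitals in the Bmal1 promoter are a RORE (AAAGTAGGTCA), which lies at bases -20 to -10 relative to the start. A RORE was found in 0.356% of all 33469 promoters of the same length. In the proximal Nr1d1 promoter the capitals are the E-box CACGTG, found in 6.42% of all promoters. The distal Nr1d1 promoter and the Per2 promoter hold the E-box variant CACGTT, in Nr1d1 on the opposite strand, so that AACGTG is printed, which 4.83% of all promoters hold. The Per2 promoter also holds the D-box TTATGTAA. This D-box or the form TTACGTAA was in 1.01% of all promoters. None of these capitals overlap. The core AGGTCA, which lies inside the RORE of Bmal1, was found in 2 of the promoters, Bmal1 and Nr1d2, and in 16.2% of all. The table held 10 promoters of 9 of the genes, Nr1d1 with 2 starts, and Cry1 is named only. Over these 10 promoters the E-box was in 1, the CACGTT variant in 2, the D-box in 1 and the RORE in 1. The cyclic AMP response element TGACGTCA was in none of them and in 1.83% of all promoters. The promoters of Dbp, Per1, Per3, Npas2 and Nfil3 held none of the searched motifs, and that of Nr1d2 held the core alone. The classes therefore rest on the general account above and not on these sequences.

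Signals are given on one scale, as the processed intensity divided by the array's 75th percentile and multiplied by 665, the geometric mean of those percentiles. Before scaling the percentiles were 642 to 882 on the CCH arrays and 563 to 700 on the control arrays. Each member probe had 1 spot per array. All 12 were well above background on all 8 arrays, with none saturated or marked as an outlier, so every member passed the filter on dim probes in both groups. A level is compared only between arrays, never between probes. All CCH arrays were on slide 2 and all control arrays on slide 1, scanned separately, and feed, slide and scan therefore cannot be told apart in any difference between the feeds. The number of arrays limits the precision. Hippocampal identity was checked with neuronal markers: 6 of 7 markers of CA pyramidal neurons and 4 of 6 of dentate granule neurons were measured, all well above background on all 8 arrays.

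Between the feeds 5 of the 6 genes of the E-box and D-box class were lower and 1 higher in CCH rats, and all 4 genes of the RORE class were higher. Dbp and Nr1d1 had lower signal in CCH rats, with log2 differences (CCH minus control) of -0.75 and -0.60, and Nr1d2 was at -0.35. Bmal1, Npas2, Cry1 and Nfil3 had higher signal in CCH rats, with log2 differences between 0.26 and 0.36 on their brightest probes. On their brightest probes the Per genes lay between -0.11 and 0.08, each within its SE of 0. Per2 and Per3, counted above as lower, and Per1, counted as higher, therefore show no clear direction. Over 1 probe per gene the median log2 difference was -0.23 in the E-box and D-box class and 0.29 in the RORE class, against 0.03 over all 31618 tested probes. Since the genes were chosen with these differences in view, the directions and medians are a description only. In bulk tissue, fewer cells of a type and less RNA per cell cannot be told apart.

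Across all probes limma called 55 of 31618 between CCH and control (0.174%), and 0 of the 12 member probes were among them. At an unadjusted p under 0.05 there were 7 of the 12 member probes and 15.4% of all probes. In 5 of the 12 member probes the groups did not overlap, 1 with all CCH rats below and 4 with all CCH rats above the controls, as in 11.3% of all tested probes. Because the members were selected on this comparison, nothing is read from these counts.

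**Figure D1:**
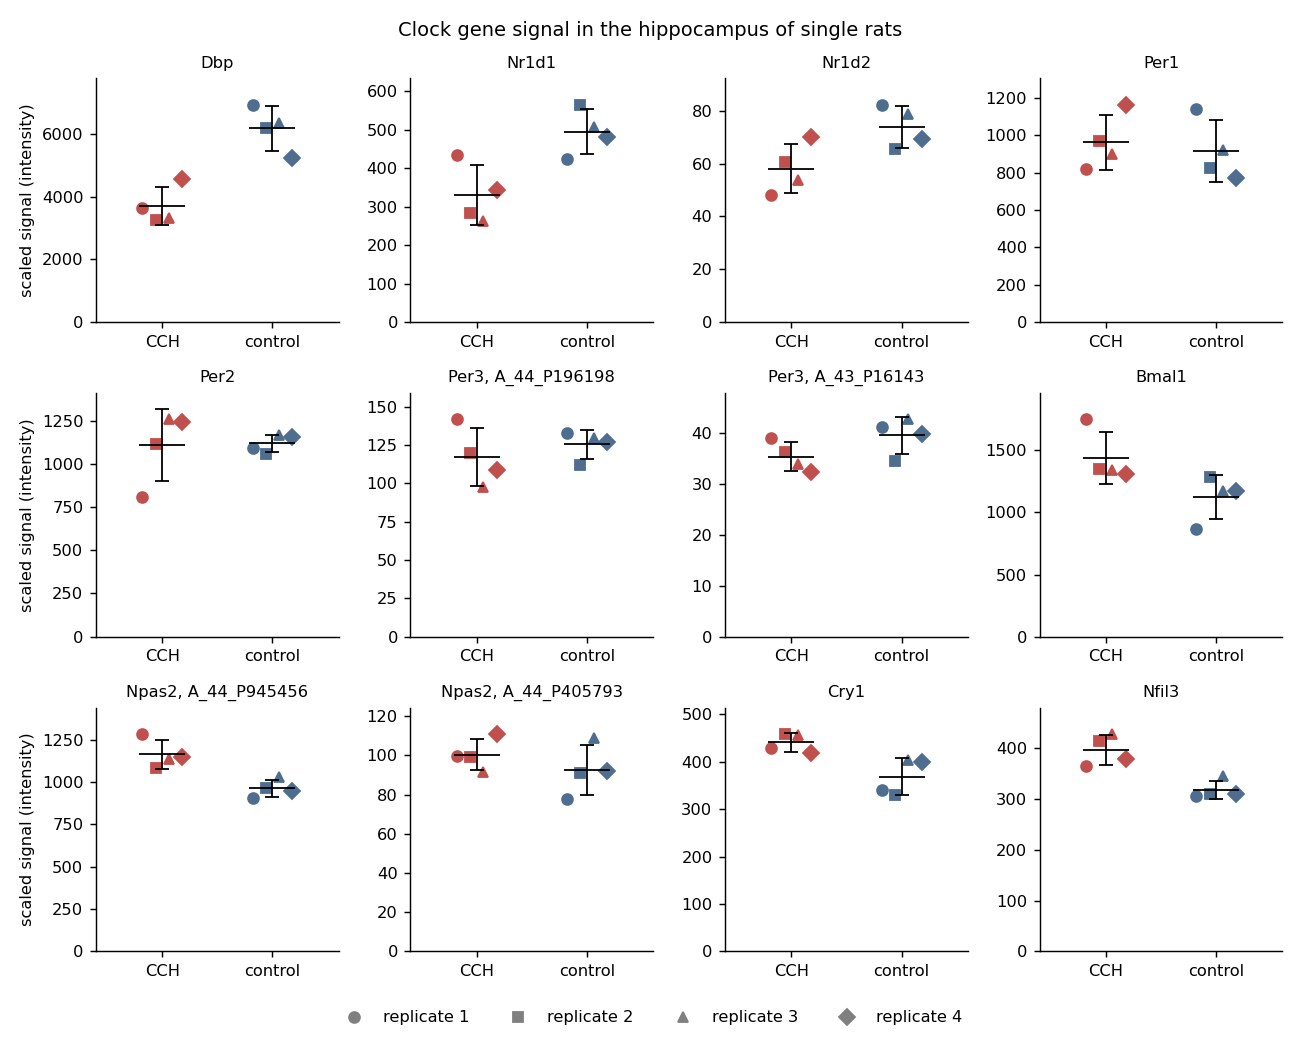
Scaled signal (intensity units, linear axis from 0) of the 12 probes in single rats, CCH left of control. Symbols mark the replicate number, horizontal bars the mean and error bars the SD of 4 rats. Dbp lies lower in all 4 CCH rats (3272 to 4581) than in the 4 control rats (5247 to 6947), and Bmal1, Cry1, Nfil3 and 1 Npas2 probe lie higher in all 4.

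Dbp is the D-box activator and one of the most strongly cycling outputs of the clock. Its scaled signal was 3637, 3272, 3318 and 4581 in CCH replicates 1 to 4, against 6947, 6185, 6356 and 5247 in control replicates 1 to 4. All 4 CCH rats lay below all 4 controls, and the rats nearest each other across the groups were CCH replicate 4 and control replicate 4. The means were 3702 ± 608 in CCH and 6184 ± 705 in controls (SD, n = 4 each), a log2 difference of -0.75 ± 0.14 (SE), or 1.68-fold lower in CCH. A difference of this size or larger, in either direction, was seen in 2.92% of all tested probes. With any 1 array left out it ran from -0.85 to -0.69.

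Nfil3 encodes the repressor that competes with DBP for the D-box, and it stood on the other side. Its signal was 365, 415, 429 and 379 in CCH replicates 1 to 4, against 306, 311, 345 and 311 in control replicates 1 to 4. The groups did not overlap, and control replicate 3 stood above the other 3 controls. The log2 difference was 0.32 ± 0.09 (SE), with a range of 0.28 to 0.36 when 1 array was left out. Of all tested probes 21% differed by at least as much as Nfil3 in the main fit. Within each rat the log2 ratio of Dbp to Nfil3, in which the scaling of the array cancels, averaged 3.21 ± 0.31 in CCH and 4.27 ± 0.18 in controls (SD, n = 4 each). That ratio has no meaning as a relative abundance and is read between rats only. It was chosen after the values were seen, and its direction was fixed by those of the single genes.

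Nr1d1, the REV-ERB-alpha gene, had a signal of 436, 284, 262 and 344 in CCH replicates 1 to 4, against 425, 566, 508 and 481 in control replicates 1 to 4. CCH replicates 2, 3 and 4 lay below all controls, and CCH replicate 1 lay just above control replicate 1, the lowest control. The log2 difference was -0.60 ± 0.17 (SE), or 1.51-fold lower in CCH. Without CCH replicate 1 it was -0.74, and without CCH replicate 3 it was -0.50. CCH replicate 1 had the highest 75th percentile of all 8 arrays (882).

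Nr1d2, the REV-ERB-beta gene, was dim, with a signal of 48.3, 60.6, 53.7 and 70.0 in CCH replicates 1 to 4 and 82.4, 65.4, 78.7 and 69.2 in control replicates 1 to 4. Only CCH replicate 4 reached the range of the controls. Nr1d2 differed by a log2 of -0.35 ± 0.14 (SE), and -0.22 with normexp background correction, another treatment of the background. A difference of this size or larger was seen in 17.5% of all tested probes.

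Bmal1 encodes the activator without which mice lose their daily rhythm. Its signal was 1751, 1350, 1341 and 1312 in CCH replicates 1 to 4, against 869, 1285, 1170 and 1175 in control replicates 1 to 4. The groups did not overlap, but control replicate 2 came close to CCH replicates 2, 3 and 4. CCH replicate 1 stood high among the CCH rats and control replicate 1 low among the controls. Bmal1 differed by a log2 of 0.36 ± 0.15 (SE), or 1.28-fold higher in CCH, and it was 0.24 without control replicate 1. A difference of this size or larger was seen in 17.0% of all tested probes.

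Npas2 encodes the partner of BMAL1 that takes the place of CLOCK in the forebrain. On its brighter probe (A_44_P945456) the signal was 1285, 1082, 1135 and 1149 in CCH replicates 1 to 4, against 907, 966, 1031 and 946 in control replicates 1 to 4. All 4 CCH rats lay above all 4 controls, and the log2 difference was 0.27 ± 0.09 (SE). Of all tested probes 26.6% differed by at least as much. The dimmer probe (A_44_P405793) gave 99.6, 99.3, 91.5 and 111 in CCH rats and 77.7, 90.8, 109 and 92.0 in control rats. On this probe the groups overlapped, and the log2 difference was 0.13 ± 0.12 (SE), or -0.02 with normexp background correction. The within-diet correlation of the 2 Npas2 probes was 0.52 over 8 arrays.

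Cry1 encodes the cryptochrome that holds BMAL1 activity down in the late part of the repressive phase. Its signal was 428, 459, 457 and 419 in CCH replicates 1 to 4, against 340, 330, 404 and 399 in control replicates 1 to 4. The groups did not overlap, with control replicates 3 and 4 close below the CCH rats. Cry1 differed by a log2 of 0.26 ± 0.10 (SE), and 0.14 with normexp background correction. Of all tested probes 27.7% differed by at least as much as Cry1 in the main fit.

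The Per genes encode the partners of the cryptochromes in repression, and their groups overlapped on every probe. Per1, which also responds quickly to neuronal activity and glucocorticoids, had a signal of 820, 968, 900 and 1164 in CCH replicates 1 to 4, against 1142, 824, 923 and 769 in control replicates 1 to 4. CCH replicate 4 and control replicate 1 were the high rats of their groups. Per1 differed by a log2 of 0.08 ± 0.16 (SE), or -0.02 without CCH replicate 4 and 0.19 without control replicate 1. Per2 had a signal of 810, 1113, 1258 and 1244 in CCH replicates 1 to 4, against 1092, 1059, 1164 and 1154 in control replicates 1 to 4. Its spread lay in CCH replicate 1, and the log2 difference of -0.03 ± 0.15 (SE) was 0.11 without that rat. Per3, measured with 2 probes, differed by -0.11 ± 0.13 (SE) on the brighter probe (A_44_P196198) and by -0.16 ± 0.10 (SE) on the dimmer one (A_43_P16143). Its brighter probe ran from 97.7 to 142 in CCH rats and from 112 to 133 in control rats. The within-diet correlation of the 2 Per3 probes was 0.83 over 8 arrays.

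**Figure D2:**
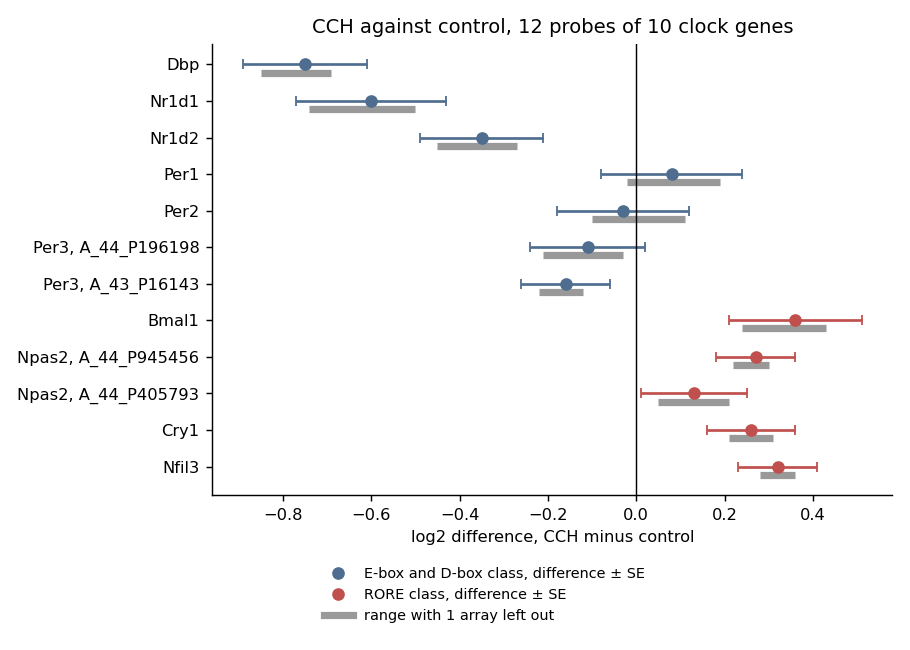
Log2 difference (CCH minus control) of the 12 probes with its standard error, and in grey the range when each of the 8 arrays was left out in turn. Dbp, Nr1d1 and Nr1d2 stay below 0 and Bmal1, Npas2, Cry1 and Nfil3 above 0 in these ranges, while those of Per1 and Per2 include 0.

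Ratios of 2 genes within a rat are free of array scaling and are given again as a description chosen after the values were seen. The log2 ratio of Dbp to Bmal1 was 1.05, 1.28, 1.31 and 1.80 in CCH replicates 1 to 4, against 3.00, 2.27, 2.44 and 2.16 in control replicates 1 to 4. The ratio of Nr1d1 to Bmal1 was -2.01, -2.25, -2.36 and -1.93 in CCH rats, against -1.03, -1.18, -1.20 and -1.29 in control rats. Both ratios were lower in every CCH rat than in any control rat. For Dbp to Bmal1 this outcome was fixed by the single genes, since all CCH rats lay below the controls in Dbp and above them in Bmal1. The ratio of Per2 to Bmal1 was -1.11, -0.28, -0.09 and -0.08 in CCH rats, against 0.33, -0.28, -0.01 and -0.03 in control rats, and here the groups overlapped. The groups differed by -1.11 for Dbp to Bmal1, by -0.96 for Nr1d1 to Bmal1 and by -0.39 for Per2 to Bmal1, each on the log2 scale. The overlap of Nr1d1 between the groups was absent from its ratio to Bmal1, since CCH replicate 1 was high and control replicate 1 low in both genes.

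**Figure D3:**
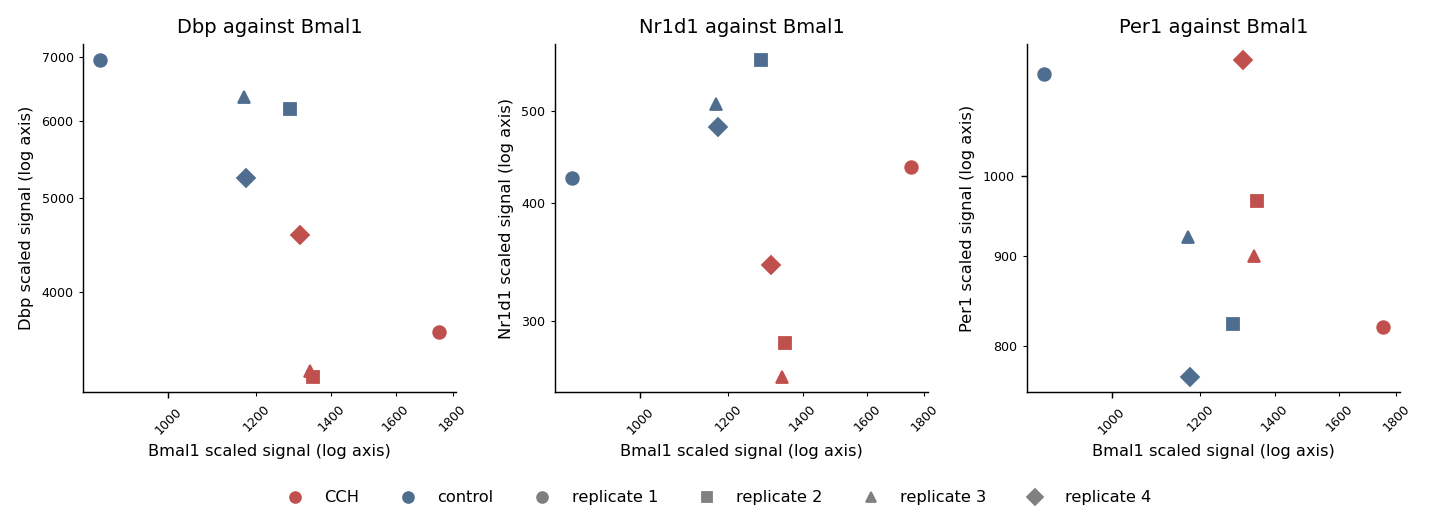
Scaled signal of Dbp, Nr1d1 and Per1 against that of Bmal1 in the 8 rats (log axes), coloured by feed, with symbols for the replicate number. CCH rats lie low in Dbp and right in Bmal1. Among CCH rats replicate 1 alone is high in both Nr1d1 (436) and Bmal1 (1751), and replicates 2 to 4 have close values of Bmal1 (1312 to 1350).

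Whether the same genes vary together from rat to rat can be asked without the difference between the feeds, after subtraction of each group's mean. Over 8 arrays and 45 pairs of genes, exact two-sided permutation over every arrangement of the values within each group gave no pair past an adjusted p of 0.05 by Pearson's r or Spearman's rho, with 6 pairs by r at an unadjusted p under 0.05. The highest correlation was that of Nr1d2 with Per1, at a Pearson r of 0.90 (exact permutation p = 0.00521, adjusted p = 0.234) and a Spearman rho of 0.83 (exact permutation p = 0.0208, adjusted p = 0.406). It was 0.85 without the 2 arrays farthest from the median of Nr1d2. Dbp and Per1 had a positive correlation (r = 0.78, exact permutation p = 0.0417, adjusted p = 0.312; rho = 0.76, exact permutation p = 0.0451, adjusted p = 0.406). This r was 0.58 without the 2 arrays farthest from the median of Dbp.

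Bmal1 had negative correlations with Per1 and Nr1d2 that did not pass the adjustment either. Its r with Per1 was -0.83 (exact permutation p = 0.0295, adjusted p = 0.312; rho = -0.83, exact permutation p = 0.0208, adjusted p = 0.406). With Nr1d2 it was -0.76 (exact permutation p = 0.0278, adjusted p = 0.312; rho = -0.81, exact permutation p = 0.0347, adjusted p = 0.406). The r with Per1 was -0.60 without the 2 arrays farthest from the median of Per1. The r with Nr1d2 was -0.70 without the 2 arrays farthest from the median of Nr1d2. Nr1d1 had positive values with Bmal1 and Npas2, at an r of 0.79 with Bmal1 (exact permutation p = 0.0174, adjusted p = 0.312; rho = 0.69, exact permutation p = 0.0903, adjusted p = 0.677) and of 0.80 with Npas2 (exact permutation p = 0.0382, adjusted p = 0.312; rho = 0.83, exact permutation p = 0.0382, adjusted p = 0.406). Without the 2 arrays farthest from the median of Nr1d1 they were 0.75 and 0.70. With Cry1 and Nfil3 the r of Nr1d1 was negative, at -0.31 and -0.61 (exact permutation, adjusted p of 0.664 and 0.568). The sign of Nr1d1 with Bmal1 within the feeds is thus opposite to that of their differences between the feeds.

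Of the 24 pairs between the classes 14 were negative, with a median r of -0.32. Of the 15 pairs within the E-box and D-box class 9 were positive (median 0.07), and of the 6 pairs within the RORE class 4 were positive (median 0.09). Leaving out the 2 farthest arrays of each pair kept the sign in 31 of the 45 pairs. The within-diet SD of the member probes was 0.09 to 0.26 on the log2 scale, against a median of 0.20 over 31543 tested probes with a value on all arrays.

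**Figure D4:**
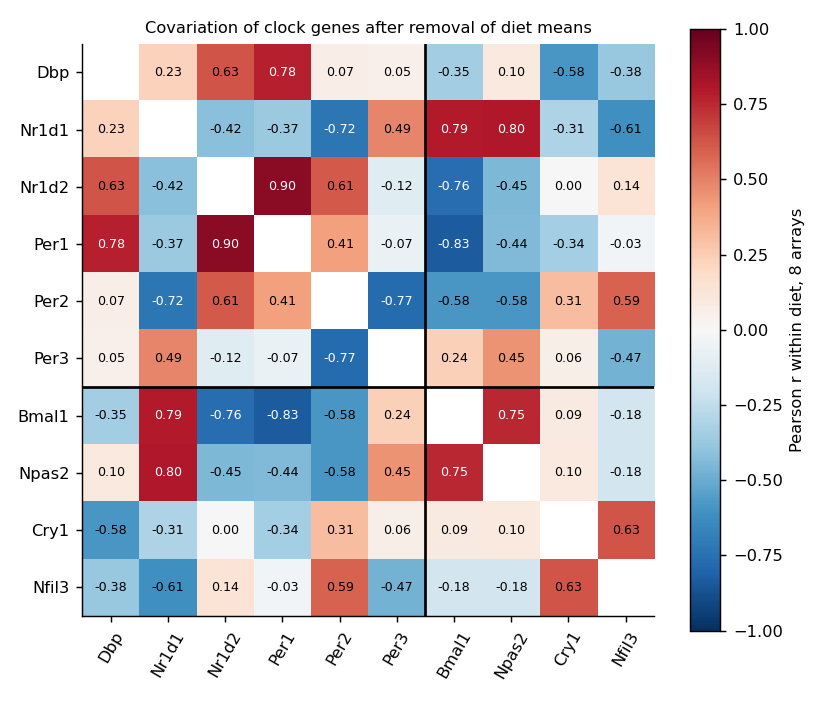
Pearson r of the 10 clock genes over 8 arrays after removal of each feed's mean (colour scale from -1 to 1), with lines between the E-box and D-box class and the RORE class. The r of Nr1d2 with Per1 is 0.90, that of Bmal1 is -0.76 with Nr1d2, -0.83 with Per1 and 0.79 with Nr1d1, and no pair passed the adjustment over 45 pairs.

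Genes outside the clock whose within-diet pattern was most like that of Dbp or Bmal1 were taken from 7944 named genes well above background on all 8 arrays. With that many genes and 8 arrays, high values of r are common, and they are given without a p. Most like Dbp were Zfp703 (r = 0.91), Fcrl2 (0.91), Sertad1 (0.90), Ifit3 (0.90), Tgfbrap1 (0.89) and Kcnk6 (0.88), and most opposite were the purinergic receptor gene P2ry2 (-0.98), the potassium channel gene Kcns1 (-0.97), Pip4k2a (-0.95), Kitlg (-0.93), Plekha1 (-0.92) and Grid2ip (-0.92). Among the most like Bmal1 were Zfyve28 (r = 0.98), Or14a258 (0.98), the kinase gene Pak1 (0.97), Tpsb2 (0.97) and Spmip4 (0.97), and most opposite were the zinc transporter gene Slc39a6 (-0.99), the microglial adaptor gene Tyrobp (-0.97), Zbtb1 (-0.96), Bend5 (-0.95), Nucb2 (-0.95) and Slc7a3 (-0.94). None of these was a clock gene of the longer list below.

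That longer list held 30 other clock genes, of which 22 had a tested probe. By limma over all probes 0 of the 22 were called in either direction, with 0 higher and 2 lower at an unadjusted p under 0.05 on their brightest probes (Tspan4 and Cipc), against 15.4% of all tested probes at that level in either direction. On those probes 12 were higher and 10 lower in CCH, with a median log2 difference of 0.00 against 0.03 over all tested probes.

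Among the activators and repressors, Clock, the usual partner of BMAL1, differed by a log2 of 0.10 ± 0.09 (SE, limma adjusted p = 0.64) and Cry2 by 0.00 ± 0.16 (SE, limma adjusted p = 0.995). Cipc, which encodes an inhibitor of the CLOCK and BMAL1 pair, was at 91.7, 75.8, 76.4 and 77.7 in CCH replicates 1 to 4, against 103, 99.2, 81.6 and 99.8 in control replicates 1 to 4 (log2 -0.25 ± 0.11, SE, limma adjusted p = 0.325). CCH replicate 1 was above control replicate 3, so the groups overlapped. The E-box repressor genes Bhlhe40 and Bhlhe41 differed by -0.05 ± 0.10 and -0.15 ± 0.08 (SE, limma adjusted p of 0.857 and 0.42). A second, dimmer Bhlhe41 probe was at -0.12 ± 0.12 (SE, limma adjusted p = 0.691). Tef, the relative of Dbp in the same protein family, differed by -0.08 ± 0.12 (SE, limma adjusted p = 0.802), which stands beside the -0.75 of Dbp. The difference between those 2 values was not tested.

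The kinases and ubiquitin ligases that time the decay of the PER and CRY proteins gave no call either. Csnk1d and Csnk1e, the casein kinases that phosphorylate PER, differed by 0.09 ± 0.17 and 0.10 ± 0.13 (SE, limma adjusted p of 0.85 and 0.763). Csnk1a1 was at -0.31 ± 0.14 and Gsk3b at -0.14 ± 0.10 (SE, limma adjusted p of 0.332 and 0.536). On second, dimmer probes Csnk1a1 was at -0.17 ± 0.11 and Csnk1e at 0.07 ± 0.12 (SE, limma adjusted p of 0.498 and 0.827). Csnk2a1, a casein kinase that acts on BMAL1 and PER2, was at 0.06 ± 0.10 (SE). Btrc, a ligase subunit for PER, was at 0.41 ± 0.24 (SE, limma adjusted p = 0.468), with CCH replicate 1 at 81.5 and the other CCH rats at 39.5 to 48.0, against 31.3 to 46.8 in control rats. Timeless was at -0.29 ± 0.18 and its partner Tipin at 0.00 ± 0.12 (SE), and the PER-associated factors Nono and Sfpq were at -0.01 ± 0.12 and 0.04 ± 0.14 (SE).

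Among genes that cycle in many tissues, Tspan4, a tetraspanin gene, was the 1 gene of the 22 whose groups did not overlap on the brightest probe, against 11.3% of all tested probes. It was at 625, 750, 733 and 839 in CCH replicates 1 to 4, against 1062, 1003, 1040 and 873 in control replicates 1 to 4. CCH replicate 4 and control replicate 4 were the nearest across the groups, and the log2 difference was -0.44 ± 0.12 (SE, limma adjusted p = 0.135). The deubiquitinase gene Usp2 differed by 0.14 ± 0.10, the cell cycle kinase gene Wee1 by -0.11 ± 0.08, Nampt by 0.04 ± 0.09 and Por by 0.25 ± 0.15 (SE, limma adjusted p between 0.488 and 0.864). Nampt, the enzyme gene of NAD salvage, was at -0.36 ± 0.15 (SE, limma adjusted p = 0.3) on a second, dim probe. The 2 other Wee1 probes were at 0.08 ± 0.09 and -0.05 ± 0.10 (SE).

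Tsc22d3, a gene that responds to glucocorticoids and also cycles, depended on 1 rat. Its signal was 5600, 11504, 13057 and 13546 in CCH replicates 1 to 4, against 8012, 8165, 8909 and 8766 in control replicates 1 to 4. CCH replicate 1 lay below every control and the other 3 CCH rats above every control. The log2 difference was 0.29 ± 0.26 (SE, limma adjusted p = 0.659), and without CCH replicate 1 it was 0.58 ± 0.09 (SE, limma adjusted p = 0.0366, in a range of 0.0366 to 0.991 over the alternatives). Its second probe was at 0.17 ± 0.15 (SE), and without CCH replicate 1 at 0.32 (limma adjusted p = 0.0683), which was not called.

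Inputs that act on Per1 and markers of other cells were set beside the clock values, and their part in those values was not tested. Of 10 measured immediate early genes 9 were higher in CCH and 1 lower, 0 called by limma and 4 higher at an unadjusted p under 0.05, with a median log2 difference of 0.33. Over all tested probes 15.4% were at that level in either direction, and the median was 0.03. Their summed signal was 26915 in CCH replicate 1 and 36073 to 37649 in the other CCH rats, against 26427 to 30842 in control rats. Of 9 measured glucocorticoid-responsive genes 3 were higher and 6 lower, 0 called and 0 at an unadjusted p under 0.05. Their summed signal was 26105 to 37540 in CCH rats and 27770 to 42076 in control rats.

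Choroid plexus markers, of which all 11 measured were lower in CCH and 0 called, summed to 1306 and 1852 in CCH replicates 4 and 2, to 71950 and 124645 in CCH replicates 1 and 3, and to 23483 to 168991 in control rats. Without CCH replicates 2 and 4 the log2 difference of Dbp was -0.82, of Nr1d1 -0.54, of Nr1d2 -0.53, of Bmal1 0.46, of Cry1 0.27 and of Nfil3 0.32, a choice made after seeing the data. In the same setting Per1 was at -0.07, Per2 at -0.15, Per3 at -0.09 and -0.12 and Npas2 at 0.33 on the brighter and 0.06 on the dimmer probe. Meningeal markers (4 of 10 higher) summed to 17191 to 52965 in CCH rats and 10989 to 133654 in control rats. Microglia markers (2 of 10 higher) summed to 21438 to 28837 in CCH rats and 29261 to 33029 in control rats, without overlap. Taken singly, 3 of the 10 had groups that did not overlap, against 11.3% of all tested probes. Fcgr2b was the 1 marker called, at a lower signal in CCH, while 0.174% of all tested probes were called. Oligodendrocyte markers were higher for 9 of 10, with sums of 184634 to 246358 in CCH rats and 173414 to 208866 in control rats, and astrocyte markers were higher for 4 of 7. CA pyramidal neuron markers, higher for 5 of 6, summed to 9499 to 10325 in CCH rats and 7086 to 8716 in control rats, without overlap. Taken singly, 1 of these 6 had groups that did not overlap.

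The suprachiasmatic nucleus, the master clock of the brain, lies outside the hippocampus, and its markers Vip, Six6, Lhx1 and Nms had no tested probe. Of the 10 genes listed for this nucleus and the hypothalamus, 8 had a named probe and 6 a tested one. The 6 measured markers of this nucleus and the hypothalamus summed to 745 to 1016 in CCH rats and 926 to 2264 in control rats, with control replicate 1 highest. Of these 6, 2 were higher and 4 lower in CCH, with 0 called. Avp was at 1249 in control replicate 1 and at 132 to 158 in every other rat. Oxt was at 128 and 96.8 in control replicates 1 and 4 and at 11.8 to 19.4 in the rest. Prokr2 was higher in CCH, by a log2 of 0.56 ± 0.16 (SE). Thalamic markers were measured for 2 of 5 genes and summed to 672 to 1937 in CCH rats and 770 to 1828 in control rats. Blood markers, measured for 4 of 5 genes, summed to 1657 to 2831 in CCH rats and 1494 to 3164 in control rats.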

How the data were processed

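RNA of 8 hippocampi, carrying the dye Cy3, was read on Agilent rat arrays, per the labels' protocols. Per the file headers, Agilent Feature Extraction (version 9.5 per the submitters' processing notes) gave the authors' processed signal, a linear intensity corrected for background and spatial trend within the array, with no scaling between arrays. The authors' deposited value table holds the same intensity, rounded (largest relative difference 0.00498; column medians 71.8 to 102 for CCH and 63.3 to 80.2 for control), so it is no independent source. Its rows were matched to the spots by feature number.

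Of 43379 non-control spots (41012 probes), 15184 probes (37%) were named through RefSeq accessions in a table of the GRCr8 assembly. The arrays' grid names rn4, so no gene coordinates are given other than those of RefSeq's own promoter sequences. Spots well above background numbered 33091 to 34643 on an array. The log2 processed intensity minus the array's 75th percentile was averaged over spots of a probe, with outlier-marked spots left out. A probe was tested if well above background on at least 4 of 8 arrays, whatever the group, with at least 3 values per group. The model, fitted with lmFit and eBayes of limma 3.58.1 (R 4.3.3), set CCH against control, two-sided. Its p-values were adjusted by Benjamini-Hochberg across every tested probe and called under 0.05. The fit was tested on simulated data with independent noise and known shifts larger than any member difference. It does not bear on differences of the size seen in the members. Correlations used 1 probe per gene, the brightest, and were adjusted over 45 pairs.

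The members and gene lists were chosen with earlier results of these data known. Named were all members and all probes of them, the tested genes of the longer clock list, and per anchor gene (Dbp and Bmal1) the 6 highest and 6 lowest correlations among genes with a within-diet SD of at least 0.1; a few genes that this rule takes in are not reported here. Alternatives were normexp background correction (offset 50, on median spot and background intensity, since the files used here hold no mean signal), other scalings and filters, outlier-marked spots kept, a replicate block, array weights, eBayes with trend and robust, a choroid plexus covariate, the deposited table, the mean of a gene's probes and leaving out arrays.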

Additional observations from a re-analysis of the deposited data

Results flagged for a closer look

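Within groups of 4 rats, the gap of the highest or lowest rat to its neighbour was set against the group's range, both on the log2 scale, by Dixon's criterion, for 12 probes in 2 groups (24 cases), and 2 cases passed. Chance alone marks about 1 in 20 groups. The Bmal1 signal of CCH replicate 1 (1751) stood apart from the other 3 CCH rats (1312 to 1350), with a gap of 0.899 of the range. The Nfil3 signal of control replicate 3 (345) stood apart from the other 3 control rats (306 to 311), with a gap of 0.86 of the range. Without CCH replicate 1 the log2 difference of Bmal1 was 0.26, and without control replicate 3 that of Nfil3 was 0.36.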

How the results depend on the processing

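Over all probes 55 were called, against 246 with normexp background correction, 29 without a detection filter, 209 with detection on all 8 arrays, 1293 with array weights, 215 with trend and robust eBayes, 1 with a choroid plexus covariate and 0 without CCH replicates 2 and 4 (chosen after seeing the data, 2 CCH rats left). With 1 array left out the count was 0 to 701, the 701 without CCH replicate 1. Of the 12 member probes 0 were called, against 1 with normexp, 1 with trend and robust eBayes, 2 with array weights and 0 to 1 with 1 array left out (1 without CCH replicate 1). Since the members were selected on this comparison, these counts are no test of them. Other clock genes called were 0, and 0 to 1 with 1 array left out (Tsc22d3 without CCH replicate 1). No other alternative run changed these last counts. Dbp, Nr1d1, Nr1d2, Bmal1, the brighter Npas2 probe, Cry1, Nfil3 and both Per3 probes kept their direction under all 21 alternatives, while Per1 turned under 2, Per2 under 2 and the dimmer Npas2 probe under 1. The Cry1 difference of 0.26 moved by more than its within-diet SD under normexp alone (0.14). No pair of members was called under any alternative run, and the negative pairs between the classes numbered 13 to 16 against 14.

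Replicate numbers equal the position on the slide, and arrays of the same number did not all deviate together (correlations of 0.145, 0.0797, -0.00521 and 0.246 over 31543 probes for numbers 1 to 4; not every array correlated best with its own number). With the number as a replicate block 0 probes were called, 4966 at an unadjusted p under 0.05. A slide or scan block was not run because it equals the feed.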
